A study of Homo sapiens with 16 samples.

Results

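The genes described here are the enzymes, regulators and sterol carriers of cholesterol and fatty acid synthesis. They were taken by symbol from a fixed list of 31, all of which were found among the 63187 genes of the count table and all of which passed the filter on low counts. Expression came from RNA-seq of 16 libraries in 4 groups of 4, all from the MYCN-amplified human neuroblastoma line SK-N-BE(2). The group labelled WT held wild-type cells of the line. The other groups were cells transfected with a form of HIF-2α, the oxygen-regulated transcription factor encoded by EPAS1. FL received the full-length protein. NCTAD and cIDR received the variants called ΔN-CTAD and Δc-IDR in the study design. Column names of the deposited table go against the labels: the line appears there as BE2c, the WT group as CTRL and the FL group as WT. The labels were followed, and EPAS1 levels, below, fit them. The labels name no residues, vector, interval since transfection or empty-vector control, so transfection as such and HIF-2α cannot be told apart in comparisons with WT. All cells grew in 21% oxygen with 10% serum, conditions in which endogenous HIF-2α protein is normally degraded. Replicate numbers 1 to 4 double as batch numbers in the labels, and each batch holds 1 library of every group; whether a batch was a culture, an extraction or a library preparation is not stated, so p-values measure the spread between libraries, which may be technical.

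Cholesterol is built from acetyl-CoA through mevalonate, isoprenoid diphosphates, squalene and lanosterol, and fatty acids from the same acetyl-CoA through malonyl-CoA. The genes of both branches are activated by the SREBP transcription factors, encoded by SREBF1 and SREBF2, which are carried by SCAP from the endoplasmic reticulum to the Golgi for cleavage when sterols are low and are held back by INSIG1 and INSIG2 when sterols are high. Several of the sterol enzymes consume molecular oxygen, and binding sites for NF-Y, which recognises CCAAT, and for SREBP often lie close together in the promoters of these genes.

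Promoter windows of 300 bases, 250 before to 50 after the annotated start, were available from RefSeq (GRCh38.p14) for 27 of the 31 genes, in 37 windows. The letters CCAAT, on either strand, occurred in 24 of the 37 windows (64.9%), against 34.6% of all 35116 windows. By gene they occurred in 20 of the 27 (74.1%), against 39.7% of the 27305 genes with a window. This background was not limited to genes detected here, whereas all members were detected. The core of the hypoxia response element, ACGTG, occurred in 11 windows (29.7%, against 21.4%). The E-box CACGTG, which contains ACGTG, occurred in 5 windows (13.5%, against 7.26%). A sterol regulatory element spelled TCACNCCAC occurred in 1 window, that of SREBF2 (2.7%, against 1.13%). A match is a description of letters, not of a bound site. The windows of 5 genes are shown because their levels did not all follow the same pattern over the libraries. Mean levels of MSMO1 and INSIG1 were highest in batch 1, and those of STARD4, INSIG2 and SREBF1 in batch 2. The windows are those of MSMO1, a sterol methyl oxidase (chr4:165327419-165327718, plus strand), STARD4, a cytosolic sterol carrier (chr5:111512486-111512785, minus strand), INSIG1 (chr7:155297628-155297927, plus strand), INSIG2 (the first of its 2 windows, chr2:118088221-118088520, plus strand) and SREBF1 (chr17:17836937-17837236, minus strand). Sequences run 5′ to 3′ on the strand of the gene, and capitals mark a match to CCAAT, the E-box or the hypoxia response core on either strand.
MSMO1: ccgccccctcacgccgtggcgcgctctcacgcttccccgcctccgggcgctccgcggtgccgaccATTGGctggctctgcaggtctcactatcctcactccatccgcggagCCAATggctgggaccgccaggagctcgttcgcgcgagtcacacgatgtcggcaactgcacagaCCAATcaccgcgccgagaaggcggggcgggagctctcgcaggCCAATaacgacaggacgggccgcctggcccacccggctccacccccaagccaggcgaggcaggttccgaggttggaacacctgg
STARD4: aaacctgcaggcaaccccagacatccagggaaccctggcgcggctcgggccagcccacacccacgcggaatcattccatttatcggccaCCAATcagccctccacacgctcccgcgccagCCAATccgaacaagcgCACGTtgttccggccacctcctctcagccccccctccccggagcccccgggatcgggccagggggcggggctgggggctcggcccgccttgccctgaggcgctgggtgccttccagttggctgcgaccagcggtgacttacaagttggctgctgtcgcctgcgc
INSIG1: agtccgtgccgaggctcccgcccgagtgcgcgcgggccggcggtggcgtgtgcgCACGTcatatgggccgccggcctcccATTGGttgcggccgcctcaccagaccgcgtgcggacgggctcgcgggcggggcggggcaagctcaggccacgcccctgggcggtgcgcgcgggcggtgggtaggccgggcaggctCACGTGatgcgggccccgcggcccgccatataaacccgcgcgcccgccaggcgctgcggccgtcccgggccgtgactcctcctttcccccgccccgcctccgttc
INSIG2: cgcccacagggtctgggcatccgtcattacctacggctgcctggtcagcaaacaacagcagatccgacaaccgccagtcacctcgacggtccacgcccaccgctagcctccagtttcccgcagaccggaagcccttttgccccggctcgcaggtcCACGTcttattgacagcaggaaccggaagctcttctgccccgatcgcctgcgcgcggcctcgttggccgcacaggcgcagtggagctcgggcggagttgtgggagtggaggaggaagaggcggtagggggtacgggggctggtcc
SREBF1: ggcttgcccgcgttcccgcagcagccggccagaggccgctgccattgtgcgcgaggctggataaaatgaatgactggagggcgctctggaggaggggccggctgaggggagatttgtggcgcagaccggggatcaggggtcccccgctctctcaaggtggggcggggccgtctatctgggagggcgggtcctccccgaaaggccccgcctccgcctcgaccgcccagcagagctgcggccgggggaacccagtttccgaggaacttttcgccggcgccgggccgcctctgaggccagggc
The MSMO1 window held 4 CCAAT matches, that of STARD4 held 2 and that of INSIG1 held 1, while the windows shown for INSIG2 and SREBF1 held 0.

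Libraries held 38.6 to 56.1 M (mega) estimated counts, and the lowest count of any member in any library was 376, for INSIG2. EPAS1 was at 18.2 ± 6.89 CPM (counts per 1 M; mean ± SD, n = 4) in WT. It was at 2609 ± 906 CPM in the FL libraries, 2851 ± 1330 CPM in the NCTAD libraries and 4484 ± 1740 CPM in the cIDR libraries, and its WT range of 13.0 to 28.1 CPM lay below every other library. Of 11 adrenergic neuroblastoma markers all were detected, with PHOX2A, a sympathetic lineage factor, at a median of 537 TPM (transcripts per 1 M) and MYCN at 1969, though TH, the rate-limiting enzyme of catecholamine synthesis, was at 2.44. Of 10 mesenchymal or fibroblast markers 6 had means under 1 TPM, with COL1A2 and PRRX1 at medians of 0, while THY1, a surface glycoprotein also found on neurons, was at 345, PDGFRB at 23.3, VIM at 21.7 and FN1 at 1.55 TPM. The summed level of this list was 304 to 485 TPM over the libraries. It was 304 to 393 TPM in batch 1, 331 to 355 in batch 2 and 387 to 485 in batches 3 and 4. Of its 7 tested genes 3 were higher and 2 lower in batch 2 against the other batches (edgeR), and 1 and 2 in batch 1. Of the 11 adrenergic markers 5 were higher and 4 lower in batch 2, and 5 and 2 in batch 1. The part of these marker differences in the batch results was not tested. Of 7 blood and hepatocyte markers 6 had means under 1 TPM, with PTPRC and HBB at medians of 0; CD14, a monocyte gene, was at 0.911 to 1.71 TPM and was higher in batch 2 (0.49 ± 0.14, adjusted p = 0.00655 by edgeR). The summed level of this list was 1.47 to 2.10 TPM in batch 2 and 1.13 to 1.88 in the others, and its part in the results was not tested. Mitochondrial genes took 2.55% of counts in the FL library of batch 4 and 6.2 to 10.3% in the others; without that library 0 members passed in FL against WT and 21 in batch 2 against the other batches.

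On the TPM scale, which allows levels of different genes to be compared, the fatty acid desaturase SCD was highest at 271 ± 48.4 TPM (mean ± SD over 16 libraries), followed by the isoprenoid synthase FDPS at 268 ± 52.6 and the citrate cleavage enzyme ACLY at 253 ± 20.1. The order of these genes depended on the batch. Means of SCD, FDPS and ACLY were 334, 330 and 270 TPM in batch 2 and 233, 215 and 245 TPM in batch 3. Next in order came HMGCS1, which makes HMG-CoA from acetyl-CoA and acetoacetyl-CoA, at 191 ± 37.6 TPM, and the squalene epoxidase SQLE at 167 ± 28.7. The sterol reductase TM7SF2 at 14.6 ± 3.16, HSD17B7 at 12.3 ± 2.37 and INSIG2 at 8.21 ± 2.41 were lowest. SREBF2 (146 ± 10.4 TPM) stood above SREBF1 (47.6 ± 17.1), with no overlap of their ranges of 128 to 161 and 29.7 to 76.6. INSIG1 (48.9 ± 8.52) stood above INSIG2, also without overlap.

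The study asks how forms of HIF-2α reshape expression, and in these genes no difference between the groups passed the test. In FL, NCTAD and cIDR against WT, 0 of 31 members passed at an adjusted p under 0.05 (edgeR quasi-likelihood test with the batch as a block), where 0.102%, 0.456% and 0.486% of all 19530 tested genes did. Between the constructs the count was also 0 of 31 in each comparison, where all genes gave 0% (NCTAD against FL), 0.0307% (cIDR against FL) and 0.00512% (the last comparison, cIDR against NCTAD). At an unadjusted p under 0.05 the edgeR counts of members were 0, 0 and 1 for the comparisons of FL, NCTAD and cIDR with WT, and 0 in each of the other comparisons. Over all genes the shares at that threshold were 5.11%, 5.96% and 5.45% against WT and 3.69%, 3.68% and 2.15% for NCTAD against FL, cIDR against FL and cIDR against NCTAD. DESeq2 and limma with adjusted p also gave 0 in all 6. Differences from WT, in log2 CPM, ranged from -0.14 to 0.15 in FL, from -0.077 to 0.099 in NCTAD and from -0.058 to 0.16 in cIDR. The outermost bounds of their 95% confidence intervals were -0.28 and 0.31, -0.20 and 0.25, and -0.18 and 0.32. These intervals leave room for small differences in either direction. Median differences of the members from WT were 0.042, 0.0047 and 0.032, beside 0.011, 0.016 and 0.0079 over all genes tested. Their sign depended on the setting: on the TPM scale (limma on log2(TPM + 1)) they were -0.0056, -0.089 and -0.046. That fit used the deposited TPM without the normalization of the main fit, so scale and normalization changed together.

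**Figure D1:**
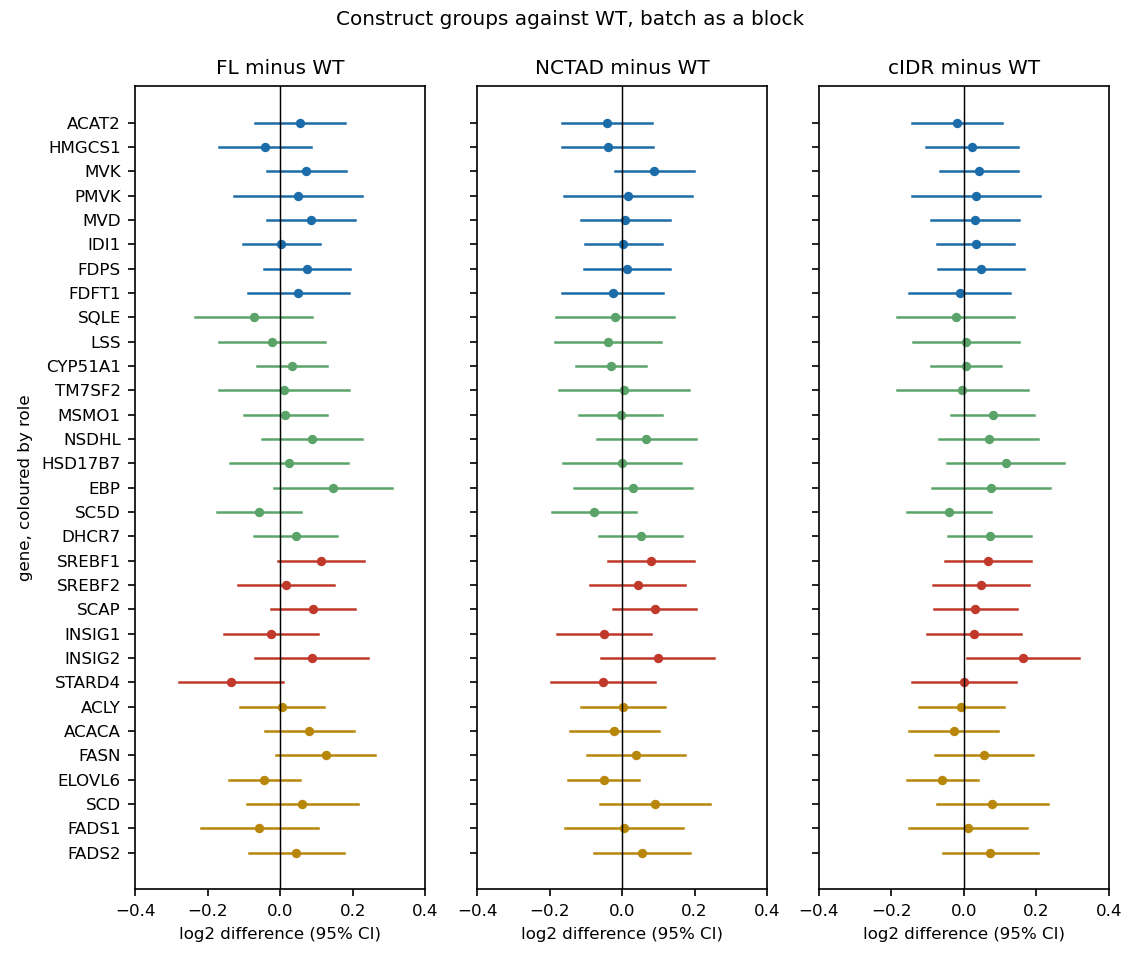
Log2 difference of each construct group from WT for the 31 genes (vertical axis, coloured by role), with points for the fitted difference and bars for the 95% confidence interval (n = 4 libraries a group). Points lie between -0.14 and 0.16, and the only interval that leaves 0 is that of INSIG2 in cIDR.

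The member nearest the threshold was INSIG2, a retention protein of the SCAP complex. In batches 1 to 4 its level was 8.79, 14.3, 11.5 and 10.3 CPM in WT and 10.2, 18.5, 11.5 and 10.7 CPM in cIDR. In FL it was 9.27, 15.4, 12.3 and 10.8 CPM, and in NCTAD 10.0, 16.1, 11.04 and 10.99 CPM. Group ranges overlapped, since batch 2 was high and batch 1 low in each group. The cIDR difference from WT was 0.16 (95% CI 0.0079 to 0.32, unadjusted p = 0.0407, adjusted p = 0.898 by edgeR with Benjamini-Hochberg adjustment). It was higher than WT of the same batch in 4 of 4 batches in both FL and cIDR, though by 0.0040 on the log2 scale in batch 3 of cIDR. On the TPM scale the FL difference turned to -0.083 (limma on log2(TPM + 1)), with FL below WT in batches 2 (10.6 against 12.9 TPM) and 4 (5.24 against 7.41 TPM). In cIDR the pattern was also lost in TPM, with 9.09 against 12.9 in WT of batch 2.

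Few other members kept 1 direction in all 4 batches. FASN, the fatty acid synthase, was higher in FL than in WT of the same batch each time, so that 6.45% of the members (INSIG2 and FASN) showed this pattern against 5.35% of all genes. In cIDR the share was 3.23% (INSIG2), against 10.6%. The desaturase SC5D and the elongase ELOVL6 were lower in NCTAD 4 times of 4 (6.45%, against 6.48%), and ELOVL6 also in cIDR (3.23%, against 7.15%). No member was lower in FL each time (0%, against 3.95%) or higher in NCTAD each time (0%, against 8.86%). These shares were near or below those of all genes. Of these patterns only that of SC5D in NCTAD held in TPM: FASN of batch 4 was at 137 in FL against 152 in WT, and ELOVL6 was above WT in NCTAD of batch 4 (30.07 against 29.4) and in cIDR of batch 1 (36.5 against 30.4).

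The neighbouring pathway genes gave the same count. Of the 11 isoprenoid branch genes, 8 sterol synthesis partners, 14 SREBP processing genes and partners, 12 sterol export and storage genes, 20 fatty acid supply genes and 5 AMPK subunits tested, 0 passed in any of the 6 group comparisons by edgeR. Of all genes tested 0.102%, 0.456% and 0.486% passed in FL, NCTAD and cIDR against WT, and at most 0.0307% between the constructs. A count of 0 in lists of this size therefore says little about them. Of 23 hypoxia genes, which HIF proteins induce, 1 rose in FL, 7 in NCTAD and 10 in cIDR against WT, and 0 fell. In NCTAD against FL, cIDR against FL and cIDR against NCTAD, 0, 1 and 0 of the 23 were higher. The counts against WT are not a comparison of the constructs.

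The members varied mainly with the batch. It took a median of 91.2% of their variation in log2 CPM over the 16 libraries, from 20% for FADS1, a fatty acid desaturase, to 97.9% for IDI1, which isomerises isopentenyl diphosphate. Over all genes tested the median was 53.8%. The group took a median of 1.41% in the members and 7.85% in all genes. Most of the variation of SREBF2, ACLY and FADS1 fell to neither, with remainders of 53.7%, 61.5% and 72.1%, and these genes also varied little: their SDs over the libraries were 0.094, 0.071 and 0.11 on the log2 scale, against 0.43 for SREBF1 and 0.096 for SCAP. The largest share taken by the group was that of SCAP, at 18%.

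**Figure D2:**
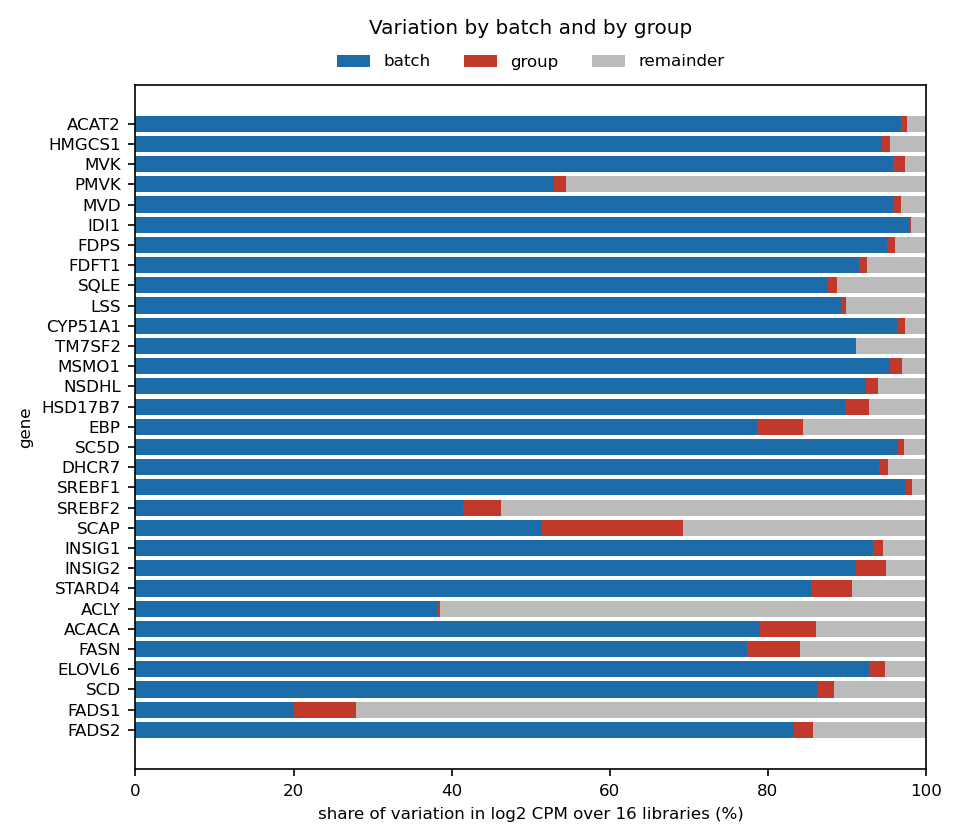
Share of each gene's variation in log2 CPM over 16 libraries taken by the batch, the group and the remainder, as stacked bars that sum to 100%. Batch takes at least 77.3% (FASN) in all genes but PMVK, SREBF2, SCAP, ACLY and FADS1.

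Batches 3 and 4 were alike, while batches 1 and 2 each stood apart in another way. Between batches 4 and 3, 0 of 31 members passed (edgeR, 0% of all genes, and 0 members at an unadjusted p under 0.05); this comparison and those of batches 1 and 2 with the mean of batches 3 and 4 were added after seeing the data. All p-values for batches come from the spread of libraries within batches, so they describe these batches. Batch 1 was highest in 24 of the 31 members (77.4%, against 25.7% of all genes) and batch 2 in the other 7 (22.6%, against 42.1%). Batch 3 against the others gave 16 of 31 members, 1 higher (SC5D) and 15 lower, where 16% of all genes passed, 7.66% higher and 8.31% lower. Batch 4 against the others also gave 16, 1 higher (SC5D) and 15 lower, where 13.4% passed, 6.57% higher and 6.87% lower; without batch 2 these counts were 7 and 0.

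**Figure D3:**
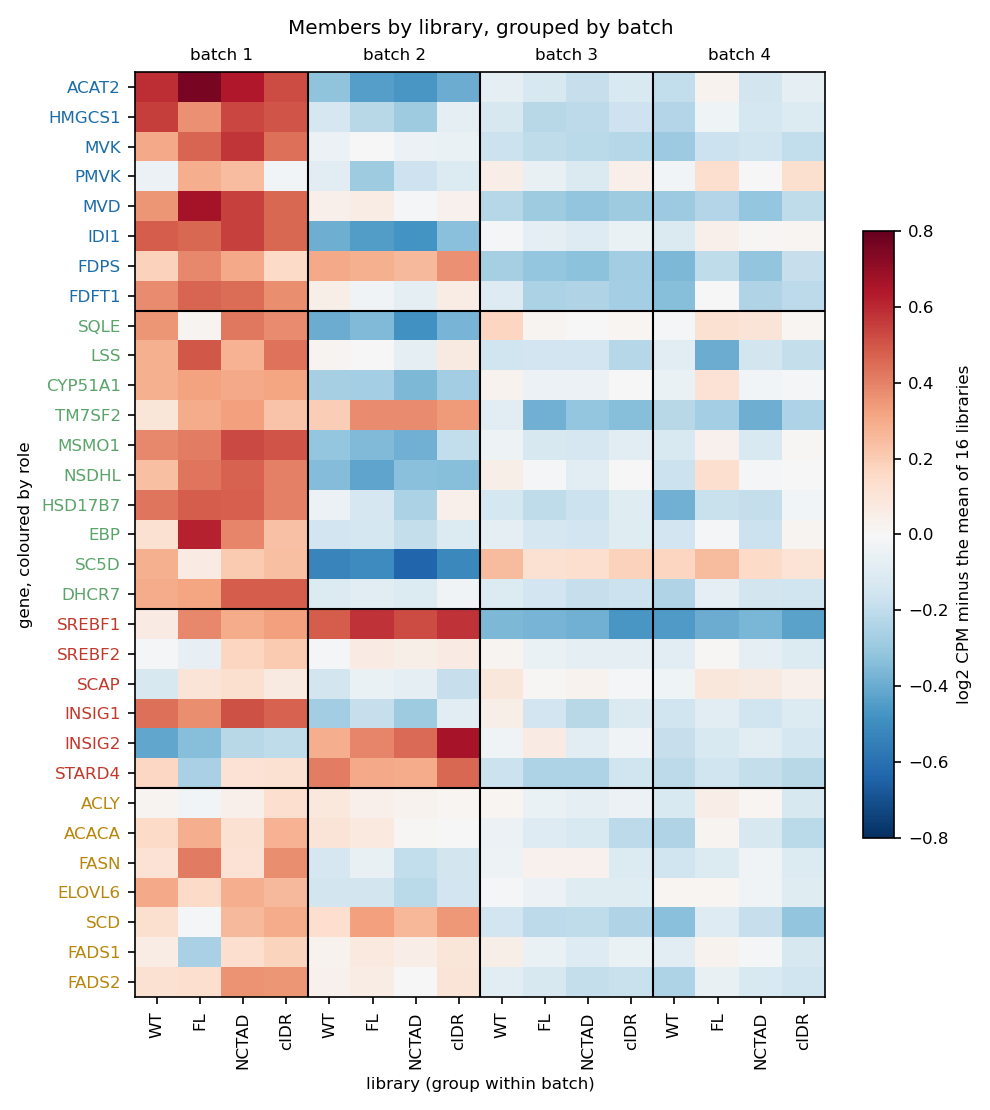
Log2 CPM of the 31 genes (rows, coloured by role and divided by lines) in each of the 16 libraries (columns, by batch and group), as the difference from the gene's mean over all libraries. Batch 1 is high in most sterol enzymes and low in INSIG2; batch 2 is high in SREBF1, INSIG2 and STARD4 and low in SC5D, IDI1 and SQLE; the 4 groups within a batch resemble each other.

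Batch 1 held high levels of nearly the whole sterol route. Against the other batches 25 of 31 members passed, 24 higher and 1 lower, where 24.7% of all genes passed, 14.9% higher and 9.77% lower. Of the 8 genes from acetyl-CoA to squalene 7 rose, of the 10 from squalene to cholesterol 10 rose, and of the 7 fatty acid genes 5 rose, with median differences of 0.62, 0.48 and 0.28. Among the 6 regulators and sterol carriers 2 rose (SREBF1 and INSIG1) and 1 fell (INSIG2). In 18 members (58.1%) each batch 1 library was above all 12 others, a pattern that 1.99% of all genes showed. Patterns without overlap had been planned for batch 2 only, so this count was unplanned. On the TPM scale, an alternative added after seeing the data, the pattern was left in 11 (35.5%, against 0.302%). Limma on log2(TPM + 1) passed 18 of 31 members in batch 1, where 16.7% of genes passed; TM7SF2, SC5D, SREBF1, INSIG2, ELOVL6, SCD and FADS2 did not pass there.

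ACAT2, the cytosolic thiolase that makes acetoacetyl-CoA, showed the largest rise. It was at 191, 214, 198 and 181 CPM in WT, FL, NCTAD and cIDR of batch 1 and between 91.7 and 129 CPM in the other 12 libraries. The difference was 0.84 ± 0.045 (log2 ± SE, adjusted p = 1.62e-07 by edgeR). MVD, which decarboxylates mevalonate diphosphate, rose by 0.68 ± 0.045 and HMGCS1 by 0.65 ± 0.047. MSMO1 rose by 0.61 ± 0.042, HSD17B7, a sterol ketoreductase, by 0.60 ± 0.060 and DHCR7, the last reductase of the route, by 0.53 ± 0.042. In the fatty acid branch FASN rose by 0.34 ± 0.051, ELOVL6 by 0.34 ± 0.037 and FADS2, a desaturase of polyunsaturated fatty acids, by 0.32 ± 0.049, while ACLY and FADS1 did not pass, at 0.057 ± 0.044 and 0.045 ± 0.062. On the TPM scale FASN was at 0.39 ± 0.081 and passed, and ELOVL6 at 0.11 ± 0.093 and FADS2 at 0.17 ± 0.070 did not; the batch 1 levels of ELOVL6, 25.4 to 36.5 TPM, overlapped those of the other batches, 24.1 to 31.7 TPM.

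The INSIG genes went opposite ways in batch 1. INSIG1 was at 109, 104, 114 and 111 CPM in WT, FL, NCTAD and cIDR of batch 1 and at 65.7 to 82.5 CPM elsewhere, with no overlap, a difference of 0.60 ± 0.048. INSIG2 was at 8.79, 9.27, 10.0 and 10.2 CPM in batch 1, below all 12 other libraries (3.23% of members, against 1.44% of all genes), where its lowest was 10.3 CPM. It fell by 0.40 ± 0.061 on the log2 scale (adjusted p = 4.70e-04 by edgeR). In TPM the libraries overlapped (7.53 in NCTAD of batch 1, 5.24 in FL of batch 4), and the difference of -0.39 ± 0.14 did not pass (adjusted p = 0.0675 by limma). SREBF2 did not pass in batch 1, at 0.10 ± 0.050.

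Against the mean of batches 3 and 4 alone, batch 1 again had 24 members higher and 1 lower (18.6% of all genes passed, 10.8% higher and 7.8% lower), with a median over members of 0.40 and over all genes of 0.015. SC5D, the last desaturase before cholesterol, was then at 0.028 ± 0.047 and did not pass. STARD4, which did not pass against the other batches (0.050 ± 0.055), passed here as higher (0.24 ± 0.058). SREBF1 was at 0.67 ± 0.047. In this comparison 1 of 23 hypoxia genes was higher and 3 lower, 3 of 11 amino acid stress genes higher and 1 lower, and 2 of 15 proliferation genes higher and 3 lower; batch 1 had 38.6 to 46.9 M counts and 6.2 to 7.54% mitochondrial counts, while 6 of the 8 libraries of batches 3 and 4 had higher mitochondrial shares (8.73 to 10.3%), the others being WT of batch 3 (7.3%) and FL of batch 4 (2.55%). The part of this difference in the result was not tested. The FL library of batch 1 was the lowest of its batch for SQLE (331 CPM, others 417 to 437), STARD4 (211, others 274 to 284) and FADS1 (141, others 176 to 191), and the highest for EBP, a sterol isomerase (145, others 103 to 124). Without it, 0 members passed in FL against WT, and 28 passed in batch 1 against the other batches.

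Batch 2 divided the route. Against the other batches 21 of 31 members passed, 6 higher and 15 lower, where 53.9% of all genes passed, 27.7% higher and 26.1% lower. The share of members that passed, 67.7%, was thus read against a background in which most genes differed. Of the 8 genes to squalene 1 rose and 4 fell, of the 10 from squalene to cholesterol 1 rose and 7 fell, of the 6 regulators and carriers 3 rose and 2 fell, and of the 7 fatty acid genes 1 rose and 2 fell. In 8 members (25.8%, against 14.6% of all genes) every batch 2 library was below all 12 others, and in 3 (9.68%, against 14.4%) above all of them. In TPM these counts were 7 (22.6%, against 7.32%; ELOVL6 was lost) and 3 (9.68%, against 13.9%). Limma on log2(TPM + 1) passed 15 members, where 45.8% of genes passed; HMGCS1, PMVK, EBP, DHCR7, SCAP, INSIG1 and ELOVL6 did not pass there, and LSS did.

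SC5D fell furthest. It was at 75.7, 77.0, 70.3 and 76.5 CPM in WT, FL, NCTAD and cIDR of batch 2 and between 114 and 133 CPM in the other 12 libraries. It fell by 0.73 ± 0.047 on the log2 scale (adjusted p = 1.09e-08 by edgeR). SQLE, which makes the first oxygen-dependent step of the route, was at 247, 255, 233 and 252 CPM in batch 2 and at 325 to 437 elsewhere, and fell by 0.54 ± 0.064. CYP51A1, the lanosterol demethylase, fell by 0.39 ± 0.038 and MSMO1 by 0.41 ± 0.045, the latter by 0.24 ± 0.047 against batches 3 and 4 alone. These 4 sterol enzymes use oxygen and were grouped after their values were seen. Of the 3 fatty acid desaturases SCD, FADS1 and FADS2, which also use oxygen, 0 fell and 1 rose (SCD, 0.36 ± 0.057).

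Other members of the route also fell in batch 2. IDI1 was at 82.3, 79.2, 77.6 and 85.7 CPM in WT, FL, NCTAD and cIDR of batch 2 and at 99.7 to 157 CPM elsewhere, and fell by 0.55 ± 0.042. ACAT2 fell by 0.54 ± 0.049, from a range of 111 to 214 CPM in the other libraries to 91.7 to 101, but by 0.29 ± 0.051 against batches 3 and 4 alone. NSDHL, a sterol dehydrogenase, was at 34.5, 32.7, 34.8 and 34.6 CPM against 38.9 to 60.9 CPM, and fell by 0.48 ± 0.054.

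SREBF1 rose most in batch 2. It was at 132, 142, 136 and 142 CPM in WT, FL, NCTAD and cIDR of batch 2, at 99.2, 124, 117 and 119 in batch 1 and at 68.6 to 74.0 in batches 3 and 4. The levels of batches 1 and 2 did not overlap with each other or with the other batches, and the batch 2 difference was 0.72 ± 0.043 (adjusted p = 5.96e-09 by edgeR). SREBF2, from 489 to 610 CPM over all libraries, differed by 0.051 ± 0.050 and did not pass (adjusted p = 0.416). SCAP was at 63.6 to 69.8 CPM in batch 2 and fell by 0.15 ± 0.044, a call that was lost on the TPM scale (-0.069, adjusted p = 0.262 by limma on log2(TPM + 1)).

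INSIG2 and STARD4 rose with SREBF1 in batch 2. INSIG2 was at 14.3, 15.4, 16.1 and 18.5 CPM in WT, FL, NCTAD and cIDR of batch 2 and at no more than 12.3 CPM elsewhere, and rose by 0.60 ± 0.057. STARD4 was at 336, 312, 311 and 348 CPM in batch 2 and at 211 to 284 elsewhere, and rose by 0.49 ± 0.053. INSIG1 fell by 0.28 ± 0.050, but its batch 2 range of 65.7 to 75.5 CPM lay within that of batches 3 and 4, 68.6 to 82.5, except at its low end. Without batch 1 its difference was -0.084 and did not pass, nor did it pass on the TPM scale (-0.13 by limma on log2(TPM + 1)).

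**Figure D4:**
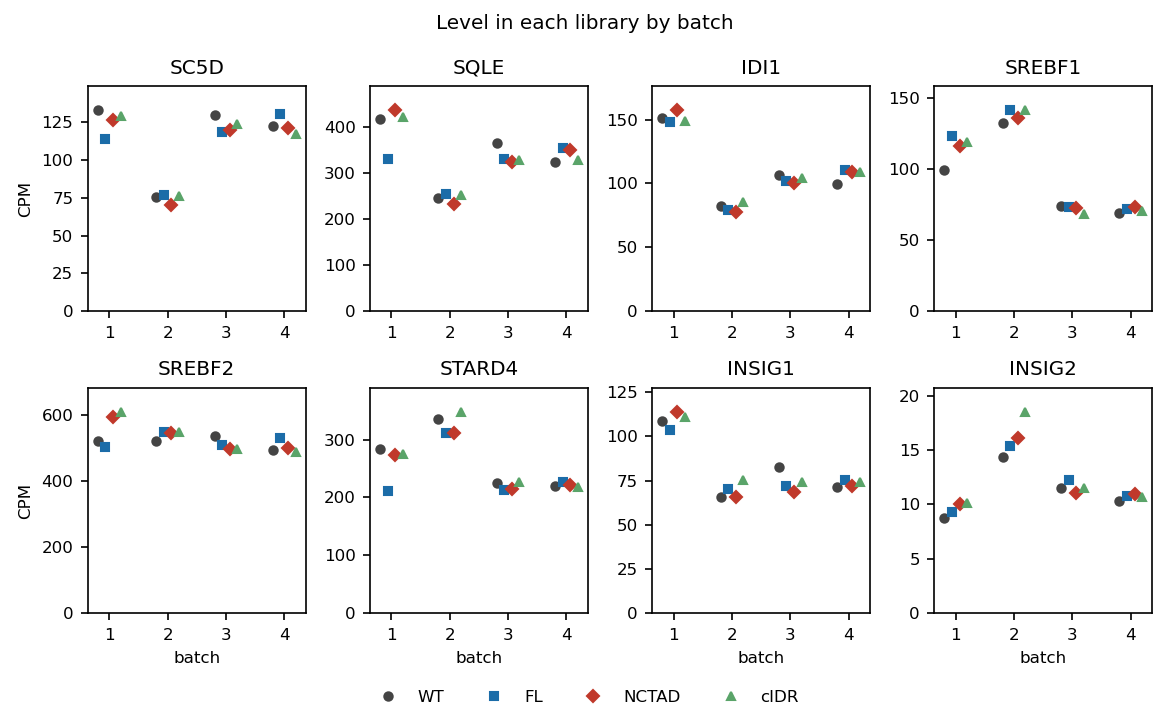
Level in CPM (vertical axes from 0) of 8 genes in each library by batch, with a symbol for each group. SC5D, SQLE and IDI1 are lowest in batch 2, SREBF1, STARD4 and INSIG2 are highest there, INSIG1 is highest in batch 1, and SREBF2 stays between 489 and 610 CPM.

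Because batch 1 was high, the contrast of batch 2 with all others mixes both batches. The median over members was -0.11 against the other batches (all genes 0.035) and 0.077 against batches 3 and 4 alone (all genes 0.034). In the latter comparison 22 of 31 members passed, 12 higher and 10 lower (52.3% of all genes, 26.9% higher and 25.4% lower). Of the 15 that were lower against all other batches 10 remained lower (ACAT2, PMVK, IDI1, SQLE, CYP51A1, MSMO1, NSDHL, SC5D, SCAP and ELOVL6), and HMGCS1, EBP, DHCR7, INSIG1 and FASN did not pass. All 6 higher ones (FDPS, TM7SF2, SREBF1, INSIG2, STARD4 and SCD) remained higher, and MVK, MVD, FDFT1, LSS, ACACA and FADS2 joined them. By role, 4 of the 8 genes to squalene were then higher and 3 lower, of the 10 from squalene to cholesterol 2 and 5, of the 6 regulators and carriers 3 and 1, and of the 7 fatty acid genes 3 and 1.

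The largest values of batch 2 against batches 3 and 4 were 0.94 ± 0.046 for SREBF1, 0.61 ± 0.071 for TM7SF2, 0.58 ± 0.047 for FDPS and 0.57 ± 0.057 for STARD4 on the high side. On the low side they were -0.72 ± 0.049 for SC5D, -0.46 ± 0.067 for SQLE and -0.37 ± 0.044 for IDI1. The values of batch 1 against the same batches, which share those 8 libraries, stand beside them: 0.67 for SREBF1, 0.52 for TM7SF2, 0.54 for FDPS, 0.24 for STARD4, 0.028 for SC5D, 0.24 for SQLE and 0.53 for IDI1. SCD was at 990.9 to 1228 CPM in batch 1, 1100 to 1265 in batch 2 and 790.2 to 929 in batches 3 and 4. Batches 1 and 2 were both above batches 3 and 4 without overlap in 8 members (MVK, MVD, FDPS, LSS, TM7SF2, SREBF1, SCD and FADS2; 25.8%, against 2.03% of all genes), and both were below them in 0 members (0%, against 2.47%). In TPM the first count was 5 (16.1%, against 0.748%), without MVK, SCD and FADS2. Neither of these patterns of batches 1 and 2 together had been planned.

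**Figure D5:**
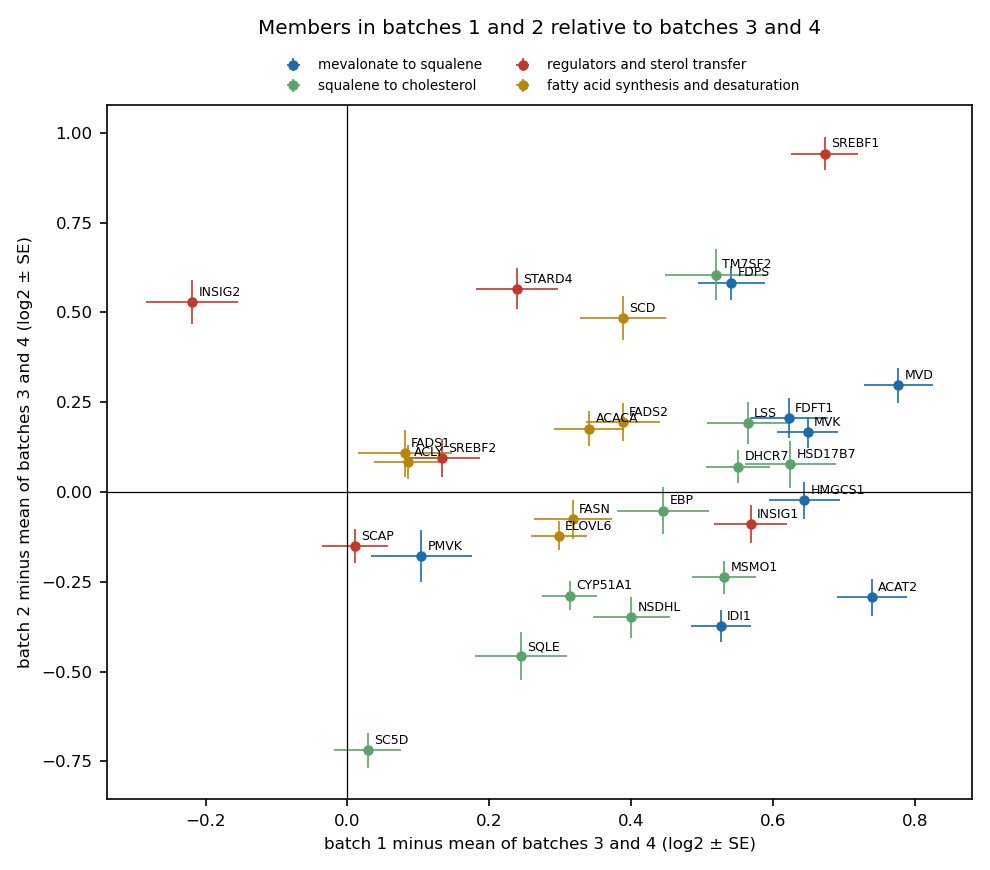
Difference of batch 1 (horizontal axis) and of batch 2 (vertical axis) from the mean of batches 3 and 4 for the 31 genes, in log2 CPM with SE, coloured by role; the axes share the libraries of batches 3 and 4. SREBF1 is high on both axes (0.67 and 0.94), SC5D is low only on the vertical one (-0.72), and INSIG2 is low on the horizontal (-0.22) and high on the vertical (0.53).

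Related genes in batch 2 gave these counts against the other batches, to be read beside the 27.7% of all genes that rose and the 26.1% that fell. Of 11 isoprenoid branch genes, which draw on the same diphosphates, 2 rose and 9 fell, among them PDSS1 (-0.68 ± 0.062) and COQ2 (-0.63 ± 0.069), of ubiquinone synthesis, and FNTB (-0.64 ± 0.061), a farnesyltransferase subunit. Of 12 sterol export and storage genes 5 rose and 2 fell: the exporters ABCA1 and ABCG1 were at 0.94 ± 0.29 and 0.62 ± 0.051, NR1H3, which encodes the oxysterol receptor LXRα, at 0.56 ± 0.10, and the esterifying enzyme SOAT1 at -0.47 ± 0.045. Of 14 SREBP processing genes and partners 1 rose and 5 fell, with ERLIN1, a protein of lipid rafts in the endoplasmic reticulum, at -0.51 ± 0.048. Of 20 fatty acid supply and elongation genes 6 rose and 6 fell, among them ACACB, an acetyl-CoA carboxylase of mitochondria, at 0.81 ± 0.078, and ACSS2, which makes acetyl-CoA from acetate, at 0.55 ± 0.044. HACD3 and ELOVL1, of the elongation cycle, were at -0.71 ± 0.050 and -0.62 ± 0.045. Of 8 sterol synthesis partners 2 rose and 4 fell, and of 5 AMPK subunits 1 rose and 1 fell.

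Other programmes moved with batch 2. Of 23 hypoxia genes 21 rose (median difference 0.92), with a summed level of 1760 to 2373 TPM in batch 2 and 842 to 1146 TPM in the other batches. Of 11 amino acid stress genes 11 rose (median 1.50), at 2392 to 2752 TPM summed against 990.0 to 1131. Of 15 proliferation genes 1 rose and 11 fell (median -0.32), at 1673 to 1826 TPM summed against 1951 to 2491. PDK1, a hypoxia-induced kinase, was at 2.81 ± 0.085, ASNS, asparagine synthetase, at 1.72 ± 0.055, and the replication gene MCM3 at -0.77 ± 0.042. Their part in the differences of the members in batch 2 was not tested.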

How the data were processed

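Poly(A)-selected RNA libraries were made with a stranded kit from about 250 ng of RNA and 13 PCR cycles, per the labels' protocols. The deposited values are estimated counts and TPM per gene; fastp, STAR, Salmon, featureCounts and GRCh38 are named in the submitters' processing notes, without versions. The authors deposited the estimated counts without scaling, and the deposited TPM values are scaled to length and depth. Estimated counts were rounded to whole numbers (15.5% had decimals). Genes were filtered with filterByExpr by group, leaving 19530. The quasi-likelihood test of edgeR 4.0.16 (R 4.3.3) with TMM normalization was fitted over the 16 libraries with group and batch as terms, and called genes at a Benjamini-Hochberg adjusted p under 0.05 over all genes. The batch is a block because the labels give it; deviations from group means correlated with a mean r of 0.308 within batches (0.0674 to 0.712) and -0.0945 between them. Log2 CPM used a prior count of 2. No libraries of a group were copies (chi-square per degree of freedom at least 6.96). Shares of variation are sums of squares of log2 CPM. Alternatives were DESeq2 1.42.0, limma 3.58.1 on log2(TPM + 1) and log2(TPM + 0.1) for genes of at least 1 TPM in 4 libraries, other normalization and filters, no block, and libraries or batches left out. The limma fits and all values in TPM used the deposited TPM without TMM, so they differ from the main fit in scale and normalization together. Scripts were tested on simulated data. Figures used matplotlib 3.10.9 in Python 3.11.15.

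Members and lists were chosen with earlier results of these data known. Genes named are the 8 members with the largest difference in batch 2, 5 regulators, EPAS1, members described by role, and up to 4 genes of each other list with the largest difference, some of which are not reported here; INSIG2 in the group comparisons and PDK1, ASNS, MCM3 and the other members with batch 1 values were chosen after their values were seen. Exons of 14 members overlap a gene on the opposite strand in GENCODE 29. Among them are ACAT2 (with TCP1 and SOD2), SREBF1 (with RAI1), STARD4 (with STARD4-AS1), IDI1 (with IDI2-AS1) and FDPS (with RUSC1-AS1). Exons of 4 members (CYP51A1, TM7SF2, FADS1 and FADS2) overlap a gene on the same strand, which strand cannot resolve. Whether counting used strand is not given in the sources used here. HSD17B7 has near-identical copies, so its counts are uncertain.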

Additional observations from a re-analysis of the deposited data

Results flagged for a closer look

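Among 44 sets of 4 libraries (11 named members in 4 groups), 4 had a library far from the other 3: its gap to the nearest, divided by the range, was above Dixon's 95% critical value. Chance flags about 1 in 20 sets of genes not chosen by their values, a rate that does not apply here, since 8 of the 11 members were named for their large differences in batch 2. For SC5D the batch 2 library was the low one, with a ratio of 0.859 in WT and 0.912 in NCTAD. For INSIG1 the batch 1 library was the high one, with a ratio of 0.84 in NCTAD and 0.949 in cIDR. These flags come from the libraries on which the genes were chosen or compared, and add no independent evidence.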

How the results depend on the processing

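Without the replicate block, 0 members passed in each of the 6 group comparisons, and the same count was obtained under all 27 alternatives, including each library left out. The pairing of libraries by batch therefore changed no call of a member there. The direction of INSIG2 in FL against WT turned under limma, from 0.086 to -0.083 on log2(TPM + 1) and -0.089 on log2(TPM + 0.1); it passed in neither. The count of members in batch 2 against the other batches, 21, ranged from 15 to 26, and that of batch 1, 25, from 18 to 28. Batches 3 and 4 against the others each gave 16; limma on log2(TPM + 1) gave 7 and 10, limma on log2(TPM + 0.1) gave 7 and 9, and leaving out batch 2 gave 7 and 0; the cause was not tested. In batch 2, SCAP did not pass under limma (-0.069 and -0.072), INSIG1 did not pass under limma (-0.13 in both) or without batch 1, and SREBF2 passed only without batch 1 (0.10, adjusted p = 0.0115). The other 8 named members kept their direction and passed under all 26 alternatives. The median of the members in batch 2 was -0.025 under limma and 0.081 without batch 1. With 4 libraries a group, the median SE of a group difference was 0.061 on the log2 scale, which limits the size that could be detected.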
